A study of Mus musculus with 24 samples.

Results

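Immunoglobulin constant region transcripts and the plasma cell genes that accompany them were followed tumor by tumor through 18 mouse mammary tumors. The set holds 9 genes of the 54532 in the tumor table and was chosen by gene symbol. It has 5 heavy chain constant genes (Ighm, Ighg3, Ighg1, Ighg2b and Igha) and the kappa light chain constant gene Igkc. The other members are Jchain, which encodes the joining chain of polymeric antibody, Mzb1, an endoplasmic reticulum chaperone of antibody-secreting cells, and Pou2af1, a B cell transcriptional coactivator.

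D2.1 and D2A1 are mouse mammary tumor cell lines of BALB/c origin, the first slow-growing and dormant in mice and the second highly proliferative. Each was placed in the mammary fat pad of female mice aged 8 to 12 weeks, and tumors were collected at about 500 mm3. The hosts were BALB/c mice, which are immunocompetent (4 tumors of each line), or SCID-beige mice, which lack T and B cells and have impaired natural killer cells through the Prkdc scid and Lyst bg mutations (5 tumors of each line). The SCID-beige strain also carries the Igh-1b heavy chain allotype on a BALB/c-like background. Each library came from a whole tumor and so mixed tumor and host cells, and each line is a single cell line. The days each tumor spent in its host are not in the labels, so line and time in the host cannot be told apart. The same lines in culture (3 libraries each) gave the level without a host.

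Antibodies are built from paired heavy and light chains. A B cell first joins its rearranged variable segment to the mu constant region, encoded by Ighm, and can later switch to a gamma, epsilon or alpha constant region. Plasma cells are the B-lineage cells that secrete antibody in bulk. IgM and IgA leave these cells as polymers held together by the J chain, and they bind it through the tailpiece at the end of their secreted heavy chains. The gamma subclasses lack that tailpiece and differ most from one another in the hinge.

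The isotype-by-isotype reading below rests on stretches that tell the constant genes apart, so the most telling are printed here. They are reference sequences from GENCODE M21 on GRCm38, the C57BL/6J genome, and all lie on the minus strand of chromosome 12. The hinge is exon 2 of each gamma gene, and capitals mark its in-frame cysteine codons. Ighg3 occupies chr12:113360529-113360576, Ighg1 chr12:113329844-113329882, Ighg2b chr12:113307261-113307326 and Ighg2c chr12:113288263-113288325.
Ighg3 hinge: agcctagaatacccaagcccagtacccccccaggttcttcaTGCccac
Ighg1 hinge: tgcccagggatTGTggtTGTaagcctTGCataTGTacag
Ighg2b hinge: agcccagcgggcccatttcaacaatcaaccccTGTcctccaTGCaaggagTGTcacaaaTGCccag
Ighg2c hinge: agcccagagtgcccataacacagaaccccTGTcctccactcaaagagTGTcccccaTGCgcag
The Ighg3 hinge held 1 such codon, those of Ighg1 and Ighg2b held 4 each, and that of Ighg2c held 3. The last 60 coding bases of the secreted forms show the tailpiece of IgM and IgA beside the end of IgG1, which has none, with the cysteine codon in capitals. They lie at chr12:113420870-113420929 (Ighm, exon 4), chr12:113258771-113258830 (Igha, exon 3) and chr12:113328979-113329038 (Ighg1, exon 4).
Ighm end: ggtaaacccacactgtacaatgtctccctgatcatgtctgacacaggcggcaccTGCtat
Igha end: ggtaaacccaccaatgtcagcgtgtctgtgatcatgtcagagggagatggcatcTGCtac
Ighg1 end: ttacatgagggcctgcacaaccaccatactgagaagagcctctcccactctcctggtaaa
Ighm and Igha both carried the cysteine codon next to last, and Ighg1 carried no cysteine codon in these bases. A gene's count pools its secreted and membrane-bound transcripts, which were not separated.

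Reads from one gamma gene can align to another where the coding sequences are identical. The longest identical run was 78 bases between Ighg2b and Ighg2c, 41 between Ighg3 and either of them, 37 between Ighg1 and Ighg2b, and at most 15 between any gamma gene and Igha or Ighm. Counts of Ighg2b and Ighg2c are therefore the least certain split. BALB/c mice carry Ighg2a where the reference strain has Ighg2c, and reads were counted on the reference, so the Ighg2c row is given as that row and not as a protein subclass.

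Tumor libraries held 13566949 to 18355153 counts, and 3 counts, the floor applied where no tumor of a group held more, corresponded to 0.161 to 0.209 CPM (counts divided by library size after TMM scaling). In the 6 cultured libraries no member exceeded 4 counts (Mzb1), Ighm, Jchain and Pou2af1 reached 1, and Igkc, Igha and the 3 gamma genes were at 0. The B cell marker Ms4a1 was at 0 to 3 counts in the 10 SCID-beige tumors, but it does not stand for all 9 B cell markers. Their sum was 7.81 to 17.9 CPM in D2.1 SCID-beige and 0.894 to 2.66 in D2A1 SCID-beige tumors. The highest of them in D2.1 SCID-beige tumors were Cd22 (88 to 198 counts) and Cd79b (36 to 85). Among plasma cell markers, Sdc1 (3389 to 14698 counts) and Xbp1 (1212 to 2555) were already high in cultured tumor cells, so these 2 do not mark plasma cells here, and Tnfrsf17, the plasma cell survival receptor, did not exceed 6 counts in any tumor. Markers of milk-producing epithelium, skin and lymph node differed among the D2.1 BALB/c tumors. Tumor 1 held 3913 counts of the milk protein gene Csn2 against 0 to 6 in the other 3. Tumor 4 held 927 counts of Glycam1, a gene of lymph node high endothelial venules also made by mammary epithelium, and 699 of the skin keratin gene Krt1. The lymph node chemokines Ccl21a and Ccl19 were at 0 in every tumor, so these 2 do not rank the tumors. Summed lymph node markers (9 genes, some also B cell markers) were at 56.9, 23.1, 42.3 and 145.6 CPM in D2.1 BALB/c tumors 1 to 4. They were at 8.29 to 19.6 CPM in D2.1 SCID-beige tumors, and every D2A1 tumor lay below every D2.1 BALB/c tumor. Summed adipocyte markers (5 genes) were at 522.9, 22.0, 186.5 and 184.1 CPM in D2.1 BALB/c tumors 1 to 4, against 1.90 to 86.9 in D2.1 SCID-beige, 48.4 to 254.8 in D2A1 BALB/c and 16.7 to 104.8 in D2A1 SCID-beige tumors. By host in D2.1 tumors the median difference of these adipocyte markers was 2.50 on the log2 scale. None of the 5 was called in edgeR or DESeq2, beside 0.891% of all genes called in edgeR. At an unadjusted p under 0.05 there were 4, beside 1489 of 14929 genes. Summed skeletal muscle markers (5 genes) were at 341.9, 31.7, 108.6 and 58.3 CPM in the same tumors and 1.44 to 255.0 in D2.1 SCID-beige tumors. D2.1 BALB/c tumor 2, the lowest in its group for all 9 members, was thus also the lowest for the lymph node, adipocyte and muscle lists. The part of these lists in the members' differences was not tested.

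The members that passed the test were higher in the immunocompetent host for both lines and, within a host, higher in D2.1 than in D2A1 tumors. Each fit compared 2 groups by edgeR's quasi-likelihood test, with Benjamini-Hochberg adjustment over all genes tested and a threshold of 0.05. In D2.1 tumors, 5 of 6 members tested were higher in BALB/c than in SCID-beige hosts, where 0.871% of the 14929 genes tested were called in that direction. Without D2.1 BALB/c tumors 1 and 4, the tumors with most milk protein, skin or lymph node marker transcripts, 3 of 6 passed (Igha, Ighg1 and Jchain). In D2A1 tumors all 3 members tested were higher in BALB/c hosts, beside 0.906% of 14572 genes. Between the lines in BALB/c mice, all 6 members tested were higher in D2.1 tumors, beside 16.8% of 14953 genes, and 5 of 6 passed without D2.1 tumors 1 and 4. In SCID-beige mice Ighm alone passed the filter on low counts and was higher in D2.1 tumors, beside 17.2% of 14355 genes. Counting both directions, 0.891%, 1.17%, 32.6% and 32.1% of genes were called in these comparisons. The 4 comparisons share tumors and are not independent.

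Most members passed the filter only through the group in which they were high, so the counts above describe them and carry no weight of their own. Ighg3, Mzb1 and Pou2af1 passed the filter in no comparison, so their values are given without a main fit. Every BALB/c tumor exceeded every SCID-beige tumor for 8 of 9 members in the D2.1 line and for 6 of 9 in the D2A1 line, where 2.09% and 2.03% of the 29312 genes with any count did so. Some of these rest on 1 count against 0, such as Ighg3 in D2.1 BALB/c tumor 2, Ighg2b in D2A1 BALB/c tumor 2 and Pou2af1 in D2A1 BALB/c tumor 3. With every lower tumor taken as holding at least 3 counts, 7 of 9 members in the D2.1 line and 4 of 9 in the D2A1 line were so separated. Every D2.1 tumor exceeded every D2A1 tumor for 5 of 9 members in BALB/c mice, beside 9.69% of genes, and for Ighm alone in SCID-beige mice, beside 6.75%.

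The difference between the 2 host effects was tested as an interaction over all 4 groups. None of 6 members tested passed in edgeR or DESeq2, and 0.0187% of the 16036 genes tested passed in edgeR. At an unadjusted p under 0.05 there was 1 member, beside 1355 of the 16036 genes. Igha came nearest, with a host effect larger in D2.1 tumors by 4.01 ± 1.23 (log2, SE, unadjusted p = 0.00401, edgeR adjusted p = 0.344). For Ighm the host effects differed by -0.17 ± 0.58 (adjusted p = 0.972). The other 4 were at 0 or 1 count in every D2A1 SCID-beige tumor, so their interaction could not be estimated with any precision. In whole tumors, fewer cells of a type and less RNA per cell cannot be told apart. Beyond shared replicate numbers nothing in the labels pairs tumors across groups, nor do the labels say how tumors of a group relate, and the p-values measure the spread between these tumors.

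**Figure D1:**
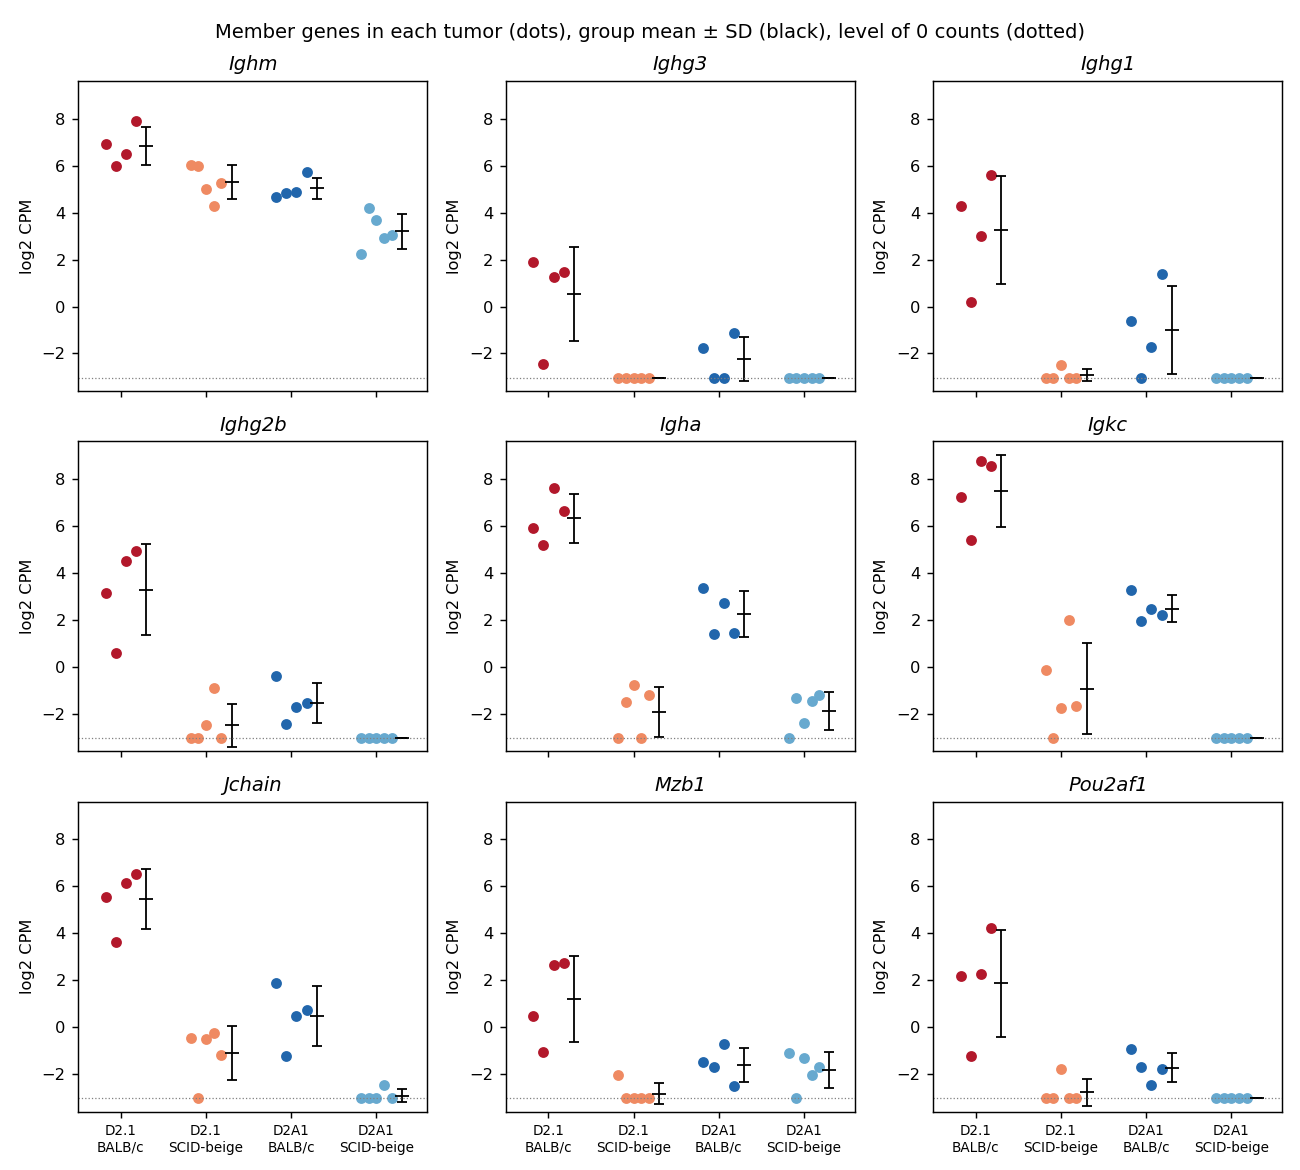
Level of the 9 members in each of the 18 tumors as log2 CPM (prior count 2), with 4 tumors per BALB/c group and 5 per SCID-beige group; dots are tumors, the bar is the mean ± SD and the dotted line is the level of 0 counts. Ighm stays above that line in all 18 tumors, while Ighg3 and Pou2af1 sit on it in all 5 D2A1 SCID-beige tumors.

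**Figure D2:**
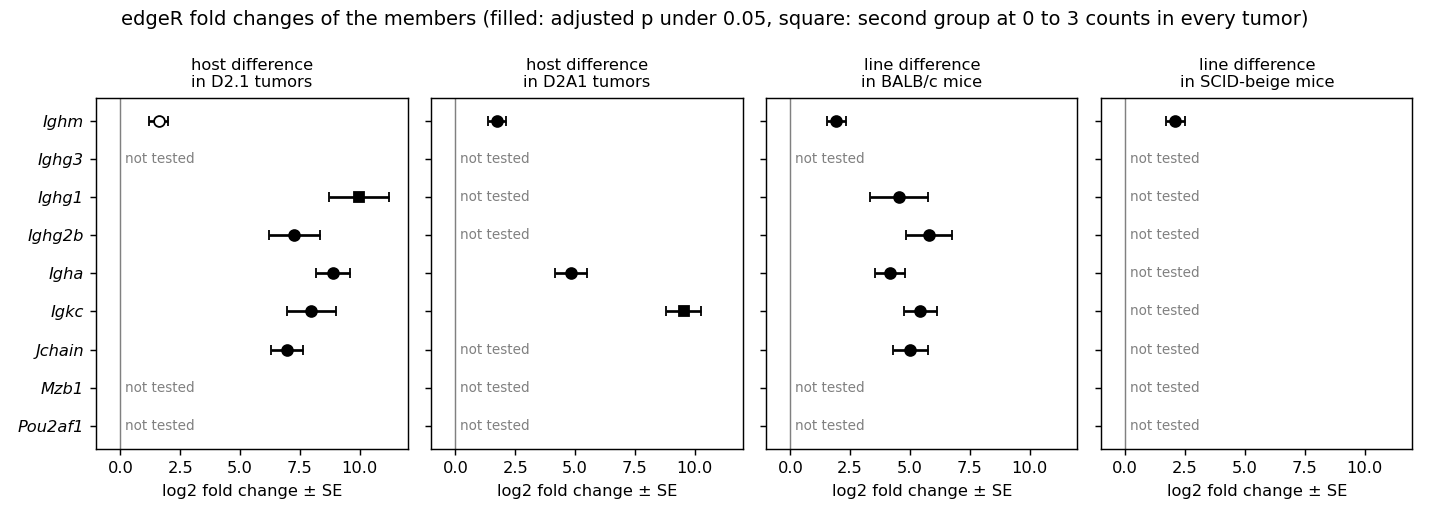
Log2 fold change ± SE from edgeR for each member in the 4 comparisons; host differences are BALB/c over SCID-beige and line differences D2.1 over D2A1. Filled points passed an adjusted p of 0.05, squares mark fits against a group at 0 to 3 counts in every tumor, and the open point is Ighm in D2.1 tumors (1.60 ± 0.40).

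Ighm, the mu heavy chain of IgM and of the B cell receptor on naive B cells, was the one member with substantial counts in every tumor. D2.1 BALB/c tumors 1 to 4 held 2263, 1062, 1561 and 3727 counts (129 ± 77.3 CPM, SD, n = 4). The 5 D2.1 SCID-beige tumors held 1044, 1083, 548, 328 and 609 counts (43.4 ± 19.8 CPM, n = 5), and the highest of them lay just above the lowest BALB/c tumor in CPM. These groups overlapped, and the difference of 1.60 ± 0.40 (log2, SE) did not pass in edgeR (adjusted p = 0.101). DESeq2 called it (adjusted p = 0.00373), as did edgeR without D2.1 BALB/c tumor 2 (adjusted p = 0.0451), and without tumors 1 and 4 together it was 0.86 ± 0.40 (adjusted p = 0.999). D2A1 tumors held 440, 464, 491 and 940 Ighm counts in BALB/c mice (34.0 ± 12.2 CPM) and 67, 260, 182, 119 and 130 in SCID-beige mice (10.2 ± 5.27 CPM), with no overlap. That difference was 1.74 ± 0.36 (edgeR adjusted p = 0.0431), and it passed in 1 of the 9 fits that left out a single tumor, with adjusted p up to 0.198. Between lines Ighm was higher in D2.1 tumors in both hosts, by 1.93 ± 0.40 in BALB/c mice (adjusted p = 0.00409) and by 2.09 ± 0.38 in SCID-beige mice (adjusted p = 0.000936). Both line differences held in every fit that left out a single tumor.

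Igha encodes the alpha heavy chain of IgA, the main antibody of mucosal surfaces and milk. The D2.1 BALB/c tumors held 1112, 597, 3340 and 1531 counts (96.9 ± 69.5 CPM), and the D2.1 SCID-beige tumors 0, 4, 8, 0 and 5 (0.202 ± 0.201 CPM). The groups were far apart, with means that differed 479.6-fold, or 352.8-fold with the 2 tumors at 0 set to 3 counts, and a fitted difference of 8.88 ± 0.70 (edgeR adjusted p = 0.00023). D2A1 BALB/c tumors held 177, 41, 107 and 47 counts and D2A1 SCID-beige tumors 0, 4, 1, 4 and 5, a 30.0-fold difference in means (4.83 ± 0.66, adjusted p = 0.00966). In BALB/c mice the mean was 17.7-fold higher in D2.1 than in D2A1 tumors (4.15 ± 0.62, adjusted p = 0.000654). In SCID-beige mice the means were 0.202 and 0.182 CPM in the 2 lines, with overlapping tumors (2-sided exact permutation p = 0.929, n = 5 and 5). The tumor with the most Igha, D2.1 BALB/c tumor 3, was neither the tumor with milk protein transcripts nor the one with the most Ighm.

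Ighg1, Ighg2b and Ighg3 encode gamma heavy chains of IgG, the class that dominates serum antibody after switching. Ighg1 was at 358, 17, 138 and 747 counts in the D2.1 BALB/c tumors and at 0, 0, 1, 0 and 0 in the SCID-beige tumors of that line. Against the floor of 3 counts per library this was an at least 105.7-fold higher mean (edgeR adjusted p = 0.0028), though tumor 2 held only 17 counts. D2A1 BALB/c tumors held 9, 0, 3 and 45 Ighg1 counts and the D2A1 SCID-beige tumors none, at least 4.01-fold higher in the mean with BALB/c tumor 2 also at 0. The line difference in BALB/c mice was 4.54 ± 1.21 (adjusted p = 0.0156) although the lowest D2.1 tumor lay within the D2A1 range. It ran from 3.55 without D2.1 tumor 4 to 6.26 without D2A1 tumor 4, and did not pass without D2.1 tumors 1 and 4 (adjusted p = 0.202) or without the filter on low counts (adjusted p = 0.106).

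Ighg2b was at 164, 23, 389 and 467 counts in D2.1 BALB/c tumors and at 0, 0, 1, 7 and 0 in D2.1 SCID-beige tumors (7.27 ± 1.05, edgeR adjusted p = 0.00906). This call was lost without D2.1 BALB/c tumors 1 and 4, although the difference was 6.86 ± 1.22 (adjusted p = 0.153), and, narrowly, without the filter (adjusted p = 0.0514). Of the 8 SCID-beige counts 7 were in tumor 4, and without it the fitted difference was 9.49 (adjusted p = 0.00635), a value that then depends on how 0 counts are handled. The D2A1 tumors held 11, 1, 3 and 4 Ighg2b counts in BALB/c mice and 0 in all 5 SCID-beige tumors, so the mean was at least 1.38-fold higher. Between lines in BALB/c mice the difference was 5.78 ± 0.96 (adjusted p = 0.00119), with no overlap. Ighg3 was the scarcest isotype. It reached 67, 1, 39 and 41 counts in D2.1 BALB/c tumors, 3, 0, 0 and 6 in D2A1 BALB/c tumors, and 0 in all 10 SCID-beige tumors, which allows at most 3 counts in each. Its D2.1 BALB/c mean was at least 11.9-fold above the SCID-beige floor, and tumor 2, at 1 count, lay below that floor.

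Igkc, the kappa light chain constant region that pairs with any heavy chain isotype, was the most abundant member per length in the D2.1 BALB/c tumors. Counts there were 2842, 698, 7539 and 5770, with 77.4 to 817.6 FPKM (fragments scaled for transcript length and library size). D2.1 SCID-beige tumors held 13, 0, 3, 64 and 3 counts, so that tumor 4 held most of the group's Igkc. The BALB/c mean was 251.6-fold higher (7.98 ± 1.01, edgeR adjusted p = 0.00316), and without D2.1 SCID-beige tumor 4 the ratio of means was 863.9-fold (9.78, adjusted p = 0.00174). The call was lost without BALB/c tumors 1 and 4 although the difference was 7.91 ± 1.17 (adjusted p = 0.0695). Every D2A1 BALB/c tumor held Igkc (165, 61, 90 and 81 counts) and every D2A1 SCID-beige tumor was at 0. The D2A1 mean was at least 29.1-fold above the floor of the SCID-beige tumors (adjusted p = 0.00857), and the fitted fold change depends on how 0 counts are handled. In BALB/c mice the D2.1 mean was 43.1-fold that of D2A1 (5.43 ± 0.70, adjusted p = 0.000247). The lowest D2.1 tumor, at 698 counts, lay above the highest D2A1 tumor, at 165.

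Jchain followed Igkc closely. D2.1 BALB/c tumors held 859, 206, 1222 and 1411 counts and D2.1 SCID-beige tumors 10, 0, 10, 12 and 5 (6.96 ± 0.67, edgeR adjusted p = 0.000657). In D2A1 tumors the counts were 62, 5, 21 and 28 in BALB/c mice and 0, 0, 0, 1 and 0 in SCID-beige mice, at least 8.42-fold higher in the mean. The line difference in BALB/c mice was 5.02 ± 0.73 (adjusted p = 0.000538), and these groups did not overlap.

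Mzb1, which aids antibody folding and assembly, was at 24, 6, 105 and 101 counts in D2.1 BALB/c tumors and at 2, 0, 0, 0 and 0 in D2.1 SCID-beige tumors, at least 19.7-fold higher in the mean. D2A1 tumors held 4, 3, 8 and 1 counts in BALB/c mice and 5, 0, 4, 2 and 3 in SCID-beige mice. Mzb1 thus showed no separation by host in the D2A1 line (exact permutation p = 0.683, n = 4 and 5), and its counts there were within the 4 reached in cultured cells except in 2 tumors. Pou2af1, the coactivator that B cells need for germinal center responses, was at 83, 5, 81 and 292 counts in D2.1 BALB/c tumors and at 0, 0, 3, 0 and 0 in D2.1 SCID-beige tumors, at least 39.1-fold higher. The D2A1 BALB/c tumors held 7, 3, 1 and 3 counts and the D2A1 SCID-beige tumors none, at least 1.02-fold above the floor.

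Exact permutation tests on single members gave a check that does not use the count model. They numbered 36 (9 members in 4 comparisons, 2-sided, on mean log2 CPM) and are given unadjusted. For D2.1 tumors by host, 8 members reached 0.0159, the smallest p that 4 against 5 tumors allow, and Ighm gave an exact p of 0.0317. For D2A1 tumors by host, Igha, Ighm, Ighg2b, Igkc, Jchain and Pou2af1 reached the same exact p of 0.0159, while Ighg1 (0.0952), Ighg3 (0.333) and Mzb1 (0.683) did not pass. Above the floor of 3 counts, Ighg2b and Pou2af1 were not separated in D2A1 tumors, nor was Ighg3 in D2.1 tumors. Their smallest exact p rests on as little as 1 count against 0. Between lines in BALB/c mice, Igha, Ighm, Ighg2b, Igkc and Jchain reached 0.0286, the smallest exact p for 4 against 4, and the other 4 members gave 0.0571 to 0.0857. In SCID-beige mice Ighm reached 0.00794, the smallest exact p for 5 against 5. Igkc, Jchain and Mzb1 each gave an exact p of 0.0476 there, Igkc and Jchain being higher in D2.1 tumors and Mzb1 higher in D2A1 tumors at 5 counts or fewer.

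The make-up of heavy chain transcripts also varied from tumor to tumor. Over the 5 heavy chain members, Ighm made up 57.1%, 62.5%, 28.5% and 57.2% of counts in D2.1 BALB/c tumors 1 to 4, out of 3964, 1700, 5467 and 6513 counts. In the D2A1 BALB/c tumors its share was 68.8%, 91.7%, 81.3% and 90.2%, out of 640, 506, 604 and 1042 counts. The mean share of Ighm was 51.3% ± 15.4 in D2.1 and 83.0% ± 10.55 in D2A1 tumors (SD, n = 4 each), and the groups did not overlap (2-sided exact permutation p = 0.0286, the smallest possible, 1 of 5 shares tested and unadjusted). Igha averaged 36.9% ± 16.8 and 14.5% ± 10.4 (exact p = 0.0571), and Ighg2b 4.94% ± 2.78 and 0.699% ± 0.691 (exact p = 0.0571). For Ighg1 the exact p was 0.2 and for Ighg3 the exact p was 0.143. The shares of Igha, Ighg2b, Ighg1 and Ighg3 all overlapped between the lines. In SCID-beige tumors Ighm made up 97.9% to 100% of these counts in D2.1 and 96.3% to 100% in D2A1.

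Among switched isotypes, counting Igha, Ighe and the 4 gamma rows, the D2.1 BALB/c tumors differed from each other beyond counting error. Igha made up 56.2% (95% Wilson interval 54.0 to 58.3), 92.0% (89.6 to 93.8), 56.9% (55.7 to 58.2) and 44.9% (43.2 to 46.5) of switched counts in tumors 1 to 4. Ighg1 made up 18.1% and 21.9% in tumors 1 and 4, and 2.62% and 2.35% in tumors 2 and 3. The Ighg2c row, which is no member, made up 33.4% (32.2 to 34.6) in tumor 3 and 5.86%, 1.70% and 5.86% in tumors 1, 2 and 4. Intervals and floors cover counting error only. Ighe, the epsilon heavy chain of IgE, was at 163 and 426 counts in tumors 1 and 4 and at 0 in tumors 2 and 3. In those 2 tumors a count of 0 allows at most 3 of 649 and 3 of 5865 switched counts. The tumors with Ighe were also the 2 with the highest Ighg1 and those with tissue markers of milk, skin or lymph node; the part of that tissue in the isotype pattern was not tested.

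**Figure D3:**
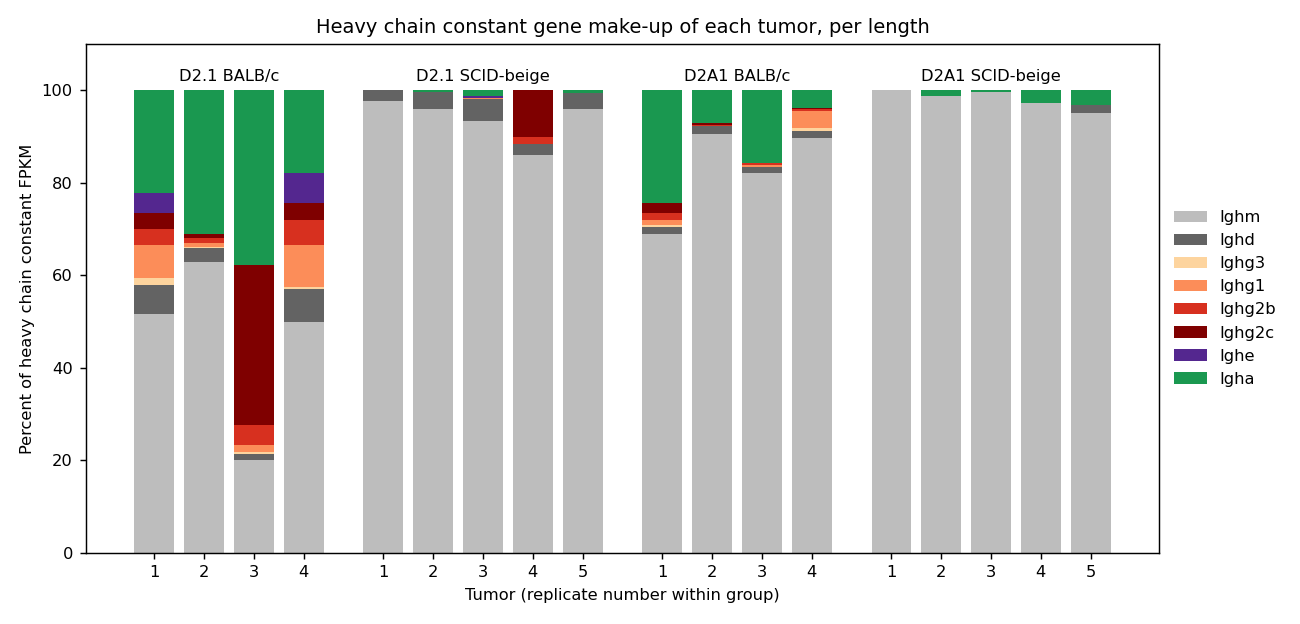
Stacked bars give the share of each heavy chain constant gene in the summed heavy chain FPKM (percent, per length) for each of the 18 tumors. Ighm fills 86.1% or more of each SCID-beige bar, and the Ighg2c row fills 34.6% of D2.1 BALB/c tumor 3.

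Of the D2A1 BALB/c tumors, 3 held at least 50 switched counts. Igha made up 84.3% of 210 in tumor 1 and 94.7% of 113 in tumor 3, whereas in tumor 4 Igha (45.6%, interval 36.3 to 55.2) and Ighg1 (43.7%, 34.5 to 53.3) were level among 103 counts. In SCID-beige tumors the switched counts numbered 0 to 35 in D2.1 and 0 to 5 in D2A1. The 35 were in D2.1 SCID-beige tumor 4, where 28 fell in the Ighg2c row and 7 in Ighg2b. That tumor also held 64 Igkc counts, 31 heavy chain variable counts from 3 segments (17 in Ighv14-4) and 12 kappa variable counts, all in Igkv12-41, with Ms4a1 at 1 count. It had 61 counts of Glycam1, against 0 to 6 in the other 4 tumors of its group.

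Mu heavy chain transcripts were not always matched by kappa light chain transcripts. The ratio of Ighm to Igkc per length was 0.266, 0.508, 0.0691 and 0.215 in D2.1 BALB/c tumors and 0.889, 2.54, 1.82 and 3.87 in D2A1 BALB/c tumors. All 4 D2.1 ratios were below all 4 D2A1 ratios. In SCID-beige tumors with more than 3 Igkc counts it was 26.8 in D2.1 tumor 1 and 1.71 in D2.1 tumor 4, and in the other 8 tumors 67 to 1083 Ighm counts stood beside 0 to 3 Igkc counts. Variable segment counts in SCID-beige tumors were likewise few, 6 to 31 heavy chain counts in the D2.1 line and 0 to 1 in the D2A1 line.

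Ighm in SCID-beige tumors moved with other B-lineage and natural killer transcripts between the lines. D2.1 SCID-beige tumors held 36 to 85 counts of Cd79b, a signaling chain of the B cell receptor, and 7 to 35 of Ighd, against 0 to 4 and 0 to 2 in D2A1 SCID-beige tumors. Cd79b differed by 4.93 ± 0.68 (edgeR adjusted p = 0.000102). The natural killer receptor gene Ncr1 was at 72 to 171 counts in the former and 0 to 9 in the latter, and summed natural killer markers (4 genes, Klra8 at 0 throughout) were at 7.28 to 26.8 and 0.126 to 0.767 CPM. Their part in the Ighm difference was not tested. The recombination gene Rag1 was at 0 in every tumor, and of the 7 precursor B cell genes none passed the filter in any comparison of 2 groups.

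**Figure D4:**
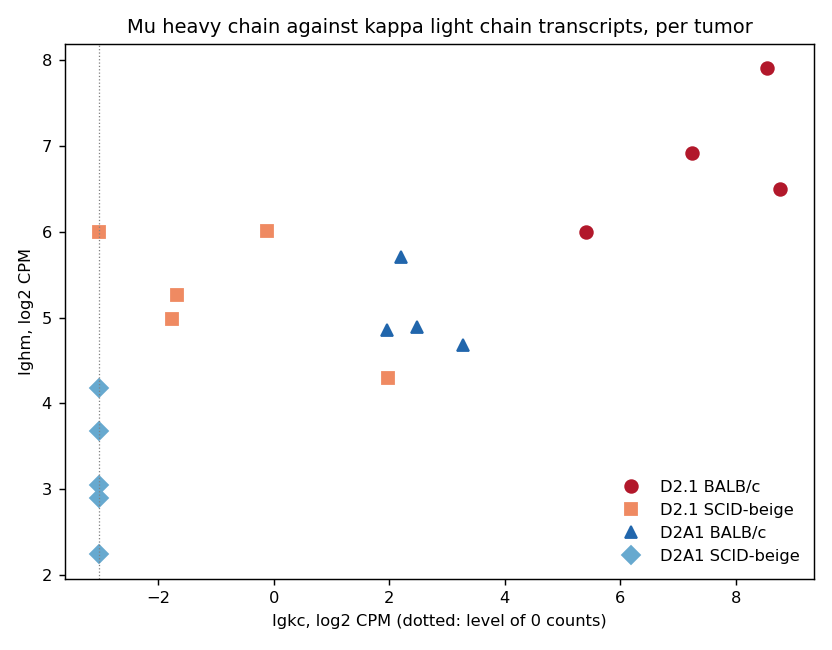
Ighm against Igkc in each of the 18 tumors, both as log2 CPM, with the level of 0 Igkc counts dotted. The 5 D2A1 SCID-beige tumors lie on the dotted line while spanning 67 to 260 Ighm counts, and the 4 D2.1 BALB/c tumors lie farthest to the right.

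Kappa dominated the light chains wherever these could be measured. Lambda constant counts (Iglc1, Iglc2 and Iglc3) were 91, 27, 168 and 394 in D2.1 BALB/c tumors, which put kappa at 96.9%, 96.3%, 97.8% and 93.6% of light chain counts. In D2A1 BALB/c tumors kappa made up 95.4%, 100%, 94.7% and 90.0% of 61 to 173 counts. Iglc1 was higher in D2.1 than in D2A1 tumors in BALB/c mice (4.54 ± 0.91, edgeR adjusted p = 0.00352) and was at 0 in all 10 SCID-beige tumors. Its D2.1 BALB/c mean was at least 31.2-fold above the SCID-beige floor. Of the 7 other constant genes in the table, 3 were tested between lines in BALB/c mice. All 3 were higher in D2.1 tumors, beside 16.8% of all genes tested. Besides Iglc1 they were the Ighg2c row (7.40 ± 1.60, adjusted p = 0.0054) and Ighd (4.57 ± 0.75, adjusted p = 0.00114). By host in D2.1 tumors 0.871% of all genes tested were called higher in BALB/c mice. Of the same 3 constant genes there, Iglc1 (adjusted p = 0.017) and Ighd (3.25 ± 0.65, adjusted p = 0.0386) passed and the Ighg2c row did not (adjusted p = 0.065). Without D2.1 BALB/c tumors 1 and 4 neither passed, Ighd at 1.52 ± 0.58 (adjusted p = 0.973) and Iglc1 at an adjusted p of 0.223. The Ighd call held in 2 of 9 fits that left out a single tumor.

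Variable segments, which carry the antigen-binding part of each chain, gave a view of how counts were spread over segments. They do not give a number of different antibodies. The number of segments seen also depends on the counts held, and tumors were not compared at equal counts. The table listed 113 heavy, 100 kappa and 3 lambda segments. D2.1 BALB/c tumors held 1394, 229, 1613 and 2331 kappa variable counts over 62, 33, 68 and 71 segments. The leading kappa segment was Igkv1-117 in tumor 1 (8.32% of kappa variable counts, 95% Wilson interval 6.98 to 9.89), Igkv4-68 in tumor 2 (10.9%, 7.51 to 15.6) and Igkv6-15 in tumor 4 (5.96%, 5.07 to 6.999). Tumor 3 stood apart. There Igkv8-24 alone took 688 of 1613 counts (42.7%, 40.3 to 45.1), and the next segment, Igkv8-30, took 82. Igkv8-24 was at 34, 1 and 51 counts in tumors 1, 2 and 4 and at 0 in all D2A1 tumors. Tumor 3 was also the tumor with 1959 counts in the Ighg2c row, against 116, 11 and 200 in the others. Counts of a gene cannot show whether those transcripts came from the same cells.

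**Figure D5:**
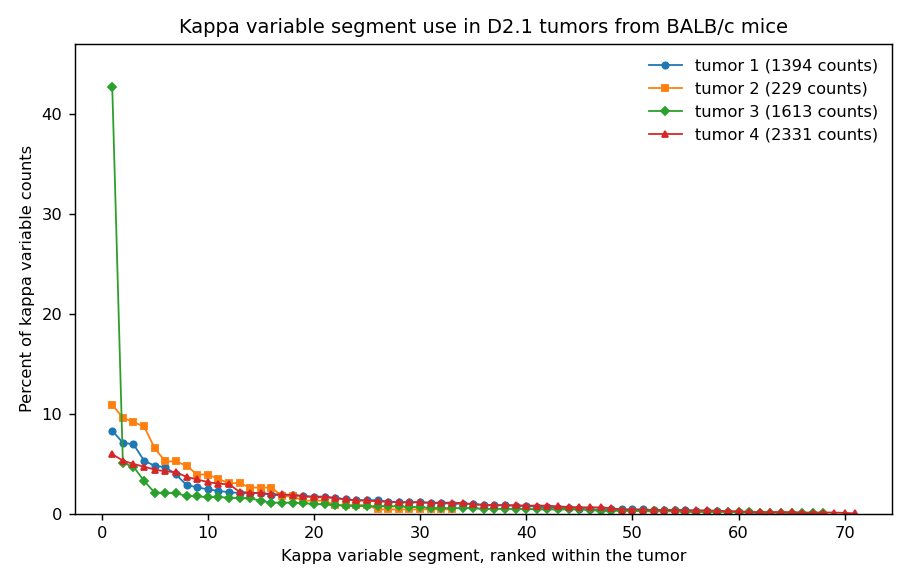
Share of kappa variable counts (percent) taken by each segment, ranked within each of the 4 D2.1 BALB/c tumors. The leading segment takes 42.7% in tumor 3 and between 5.96% and 10.9% in the other 3 tumors.

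Summed over the BALB/c tumors, Igkv8-24 (774 counts), Igkv1-110 (278) and Igkv1-117 (262) were the most used kappa segments. Without D2.1 BALB/c tumor 3 Igkv8-24 held 86 counts and ranked 18, and Igkv1-117 (236), Igkv1-110 (225) and Igkv6-15 (210) led. Heavy chain segments were counted far less, at 194, 48, 113 and 166 counts in D2.1 BALB/c tumors. Ighv3-6 (75 counts), Ighv2-9 (66) and Ighv5-6 (56) led, and the leading segment of a tumor was Ighv5-6 in tumor 1 (23.2%, interval 17.8 to 29.6), Ighv3-6 in tumors 2 and 4, and Ighv2-9 in tumor 3. BALB/c variable segments differ from the reference strain's, so reads can be split between similar segments or lost. Lambda counts went mostly to Iglv1 (386 over the BALB/c tumors), followed by Iglv2 (85) and Iglv3 (34). D2A1 BALB/c tumors held 11 to 29 kappa and 1 to 6 heavy chain variable counts, with no segment above 8 (Igkv1-117 in tumor 3). Most segments were too scarce to be tested. The 5 tested by host in D2.1 tumors were all called higher in BALB/c mice, beside 0.871% of all genes tested. The same 5 were tested between lines in BALB/c mice and all called higher in D2.1 tumors, beside 16.8% of all genes. These 5 were at 0 counts in every D2.1 SCID-beige tumor and at 7 or fewer in D2A1 BALB/c tumors. They passed the filter on low counts only through the D2.1 BALB/c group, so their direction was set by the filter and carries no weight of its own.

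Genes of B cell identity were called by host in D2.1 tumors and between lines in both hosts, and none passed by host in D2A1 tumors. Of 20 such genes, 14 were tested by host in D2.1 tumors, with a median of 1.64 on the log2 scale. Higher in BALB/c mice were 4, beside 0.871% of all genes tested. They were Pax5, the B-lineage commitment factor (5.25 ± 1.01, edgeR adjusted p = 0.0358), the kinase gene Blk (3.58 ± 0.73), the transcription factor gene Spib (3.48 ± 0.59) and Cxcr5, the follicle homing receptor (3.33 ± 0.67). Pax5 and Blk each passed in 2, Spib in 4 and Cxcr5 in 1 of the 9 fits that left out a single tumor. Cxcr5 was also at 24 to 77 counts in cultured tumor cells. None of 7 tested passed in D2A1 tumors in edgeR or DESeq2, beside 1.17% of all genes called by host there in edgeR. At an unadjusted p under 0.05 there were 3 of these 7, beside 1472 of 14572 genes. Between lines in BALB/c mice 9 of 13 tested were higher in D2.1 tumors and none lower, beside 16.8% of all genes called higher. The median of the 13 was 3.01, and the largest called were Pax5 (5.98 ± 1.20), Cd79b (5.57 ± 0.69) and Blk (4.84 ± 0.97). In SCID-beige mice 5 of 8 were higher in D2.1 tumors, among them Cd79b, Cd22 (2.51 ± 0.42) and Ralgps2 (1.39 ± 0.31).

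Ms4a1, the gene of the B cell surface protein CD20, was at 50, 4, 43 and 134 counts in D2.1 BALB/c tumors and at 0 to 1 in D2A1 BALB/c tumors. D2.1 BALB/c tumor 2, which had the lowest level of all 9 members in its group, also had the fewest Ms4a1 counts, and tumor 4 had the most Ms4a1, Ighm, Ighg1, Ighg2b, Jchain and Pou2af1. Summed B cell markers (9 genes) were at 15.3 to 139.7 CPM in D2.1 BALB/c, 7.81 to 17.9 in D2.1 SCID-beige, 1.30 to 2.72 in D2A1 BALB/c and 0.894 to 2.66 in D2A1 SCID-beige tumors. Summed T cell markers (8 genes) moved with the members, at 71.4 to 221 CPM in D2.1 BALB/c, 6.55 to 16.9 in D2.1 SCID-beige, 10.2 to 30.6 in D2A1 BALB/c and 3.28 to 5.97 in D2A1 SCID-beige tumors. Their part in the differences was not tested.

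Regulators of the plasma cell program gave no call by host, where few genes of any kind were called. Of 15 genes for plasma cell differentiation and secretion, 14 were tested by host in D2.1 tumors and 11 in D2A1 tumors. None passed in either, beside 0.891% and 1.17% of all genes, shares at which so short a list says little. Medians were -0.02 and 0.16, against -0.01 and 0.01 over all genes tested. At an unadjusted p under 0.05 there were 4 and 2, beside 1489 of 14929 and 1472 of 14572 genes. DESeq2 called 2 and 1, beside 461 and 565 genes. Between lines in BALB/c mice 4 were higher and 1 lower in D2.1 tumors of 14 tested (median 0.62), beside the 32.6% of all genes called in that comparison. The largest rises were in Ccr10, a homing receptor of IgA plasma cells (3.81 ± 0.80, adjusted p = 0.00456), the surface receptor gene Slamf7 (3.42 ± 0.40) and Irf4, a factor plasma cells require (2.60 ± 0.66). Fkbp11, a secretory chaperone gene that cultured tumor cells also express, was the one lower (-1.80 ± 0.31). In SCID-beige mice the same 3 were also higher in D2.1 tumors (Slamf7 3.12 ± 0.36, Irf4 2.42 ± 0.59, Ccr10 2.02 ± 0.69), among 5 higher and 2 lower of 14, beside 32.1% of all genes. Ccr10 passed there in 4 of 10 fits that left out a single tumor.

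Germinal center and class switching genes gave no call by host in either line, in edgeR or DESeq2. None of the 5 tested in each had an unadjusted p under 0.05, beside 1489 of 14929 genes in D2.1 and 1472 of 14572 in D2A1 tumors. With 0.891% and 1.17% of all genes called there in edgeR, no call among 5 genes says little. Between lines in BALB/c mice 3 of 6 tested were higher in D2.1 tumors, beside 16.8% of all genes, namely Gcsam (2.18 ± 0.75), Bcl6, the germinal center repressor (1.22 ± 0.18), and Fas (0.88 ± 0.24). Gcsam passed in 2 and Fas in 7 of 8 fits that left out a single tumor.

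Among survival and homing signals, Cxcl13, the B cell attracting chemokine, stood out. It was at 1377, 453, 1219 and 1449 counts in D2.1 BALB/c tumors against 54 to 102 in D2.1 SCID-beige tumors (15.7-fold in the mean, SE of the log2 difference 0.34, edgeR adjusted p = 0.00023) and 59 to 128 in D2A1 BALB/c tumors (3.80 ± 0.39, adjusted p = 5.48e-05). Both differences passed without each tumor in turn. Ltb, a lymphotoxin chain, was also higher by host in D2.1 tumors (1.99 ± 0.35, passing in 3 of 9 such fits) and by line in both hosts. In D2A1 tumors the one signal that differed by host was Tnfsf13b, the B cell survival factor BAFF (1.79 ± 0.22, adjusted p = 0.0087). Il6, a plasma cell growth factor, was lower in D2.1 than in D2A1 tumors in BALB/c mice (-2.32 ± 0.75) and in SCID-beige mice (-2.14 ± 0.77), passing in 2 of 8 and 3 of 10 fits that left out a single tumor, and Cxcl12 was lower in the latter (-1.26 ± 0.39).

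Of genes for receptors that read or carry antibody, 6 were tested. By host 1 was called in D2.1 and 2 in D2A1 tumors, beside 0.891% and 1.17% of all genes tested. By line 1 was called in BALB/c and 3 in SCID-beige mice, beside 32.6% and 32.1% of all genes. The activating receptor gene Fcgr4 was higher in BALB/c hosts in D2A1 tumors (2.45 ± 0.33, edgeR adjusted p = 0.00966) and in D2.1 tumors (1.18 ± 0.25, adjusted p = 0.0467, passing in 2 of 9 fits without a tumor). The inhibitory receptor gene Fcgr2b was higher by host in D2A1 tumors (0.84 ± 0.16, passing in 1 of 9 such fits). Fcgrt, the neonatal receptor that recycles IgG, was higher in D2.1 tumors in both hosts (1.52 ± 0.23 in BALB/c and 1.21 ± 0.20 in SCID-beige mice). Pigr, which carries polymeric IgA across epithelia, did not exceed 31 counts, and that count was in D2.1 BALB/c tumor 1.

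Genes whose level ran most like Igkc were sought among 16490 genes with at least 0.5 CPM in 4 or more tumors. The 5 protein-coding genes with the highest Spearman correlation over the 18 tumors were Jchain (0.973), Serpina1b (0.951), Cd8b1 (0.9499), Tlr12 (0.896) and Tap1 (0.890). Over the 8 BALB/c tumors alone the same correlations were 0.952, 0.762, 0.929, 0.262 and 0.881. Jchain, Cd8b1, the CD8 beta chain gene of cytotoxic T cells, and Tap1, the peptide transporter of antigen presentation, kept high values there, while Tlr12 did not. The tumors share hosts, lines and library preparation, so these values describe the ordering of tumors and nothing more. Of the 13 immunoglobulin genes among those ranked, 7 were in the 50 most like Igkc. Igha ordered the 8 BALB/c tumors exactly as Igkc did (Spearman 1), and Ighm less closely (0.762).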

How the data were processed

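Bulk RNA-seq of 18 tumors and 6 cultured libraries was used. Per the submitters' processing notes, reads were aligned with STAR to mm10. The counting program, annotation, strand setting and read filters are not given in the sources used here. The authors deposited raw read counts per gene and FPKM values, which were used per length only. The gene length implied by the deposited counts and FPKM was within 1 base of the mean transcript length of GENCODE M21 for 96.6% of 29274 genes. Symbols came from GENCODE M21 for 54409 of 54532 tumor rows, and unmatched rows held 0.0446% of counts. No column of the tables was left unused for want of a sample.

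Each comparison was fitted on its 2 groups with edgeR 4.0.16 (R 4.3.3; filterByExpr, TMM, robust quasi-likelihood) and Benjamini-Hochberg adjustment over all genes tested, and the interaction on all 4 groups. CPM used TMM factors over the 18 tumors, and log2 CPM a prior count of 2. Permutation tests used scipy 1.17.1. DESeq2 1.42.0 and other filters, scalings and left-out tumors were alternatives. The fits were tested on simulated counts with known changes. At an adjusted p under 0.05, 4.49% to 8.74% of edgeR calls and 15.6% to 20.9% of DESeq2 calls were false there. A call by DESeq2 alone is therefore less certain. No 2 tumors of a group were copies (chi-square per degree of freedom 18.6 or more over 32 pairs). In both BALB/c groups the closest pairs were tumors 1 and 2 and tumors 3 and 4. These were at 37.5 and 28.1 in D2.1 and at 18.6 and 23.5 in D2A1, against 41.8 to 91.7 for their other pairs. In SCID-beige mice tumors 1 and 2 were the closest pair of each line. The labels do not say whether such tumors were handled together, and the tests treat all tumors as independent. The rule for named genes was: all 9 members, the 3 largest called genes of each list, the other constant genes, the 3 most used variable segments per chain with each BALB/c tumor's largest, and the 5 protein-coding genes most like Igkc. Ms4a1, Csn2, Glycam1, Krt1, Ccl21a, Ccl19, Ncr1, Sdc1, Xbp1, Tnfrsf17, Rag1, Pigr, Cxcr5, Fkbp11, Klra8, Igkv8-30, Igkv12-41 and Ighv14-4 were named after their values were seen. The members and the gene lists were chosen with earlier results of these data known.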

Additional observations from a re-analysis of the deposited data

Results flagged for a closer look

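Of 40 sets of 4 or 5 values checked (each member's log2 CPM within a group, and each heavy chain share within the BALB/c groups), 7 held a tumor whose gap to its nearest neighbor took up more of the group's range than Dixon's 95% critical value for its size allows. Chance flags about 1 set in 20. Ighg3 in D2.1 BALB/c tumor 2 (1 count) lay below the other 3 tumors (gap over range 0.853). Ighm took a lower share of heavy chain counts in D2.1 BALB/c tumor 3 than in the other tumors of its group (0.841). Ighg2b in D2.1 SCID-beige tumor 4 (7 counts) lay above its group (0.74). The remaining 4 were single SCID-beige tumors with 1 to 3 counts where the rest of the group was at 0, each with a gap over range of 1: Ighg1 and Pou2af1 in D2.1 tumor 3, Mzb1 in D2.1 tumor 1 and Jchain in D2A1 tumor 4. These 4 are at the floor of 3 counts and show no level above it.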

How the results depend on the processing

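Among the recomputed member log2 fold changes, 360 kept their direction and side of the threshold, 16 fell below it, 2 rose above it and 7 changed sign. All 7 were interaction estimates that passed in no fit: Ighm at 0.05, 0.01, 0.01, 0.13 and 0.01 without D2.1 BALB/c tumor 2, D2.1 SCID-beige tumors 1 and 2, D2A1 BALB/c tumor 4 and D2A1 SCID-beige tumor 1, Igkc at 0.16 without D2.1 SCID-beige tumor 4, and Jchain at -0.87 without D2A1 SCID-beige tumor 4. Without single tumors these estimates ran from -0.66 to 0.13 (Ighm), from -2.02 to 0.16 (Igkc) and from -0.87 to 1.26 (Jchain). The exact test of Igha between lines in SCID-beige mice changed sign on log2(FPKM + 1) (0.00911 against -0.03, exact permutation p = 0.929 in both, n = 5). The cause was not tested.

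Calls over all genes moved more than the members did. By host in D2.1 tumors they numbered 133, and 461 with DESeq2, 275 without the filter, 261 in a fit of all 4 groups and 26 to 314 without single tumors. Without D2.1 BALB/c tumors 1 and 4 together, an alternative chosen after seeing the data, they numbered 11, and 3 of 6 members were called in place of 5. By host in D2A1 tumors there were 170, 565 with DESeq2, and 27 to 172 without single tumors. Line differences ranged from 4074 to 5046 in BALB/c mice and from 3969 to 4916 in SCID-beige mice without single tumors. The interaction gave 3 calls in edgeR (1355 genes at an unadjusted p under 0.05), 102 with DESeq2, 6 with DESeq2 size factors, 7 without the filter and 0 to 12 without single tumors, with no member among the called in any of these fits. Without single tumors, members called by host ranged from 5 to 9 in D2.1 (9 without D2.1 BALB/c tumor 2) and from 2 to 3 in D2A1, and by line from 6 to 9 in BALB/c mice. In SCID-beige mice 3 members were called by line without the filter and in the fit of all 4 groups (Ighm, Igkc and Jchain) in place of 1.

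The Ighm share difference between lines was -24.1 to -36.4 percentage points without single tumors, always with an exact permutation p of 0.0571 (n = 3 and 4), since fewer tumors cannot reach 0.05. The other isotype differences ranged from 0.206 to 0.750 (Ighg3), 2.63 to 6.12 (Ighg1), 3.503 to 5.44 (Ighg2b) and 14.4 to 26.9 points (Igha).

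Replicate numbers are shared across groups, but in no comparison did every same-numbered pair correlate above 0.1, so they were not taken to pair the tumors. Their correlations ran from -0.199 to 0.167 and from -0.436 to -0.187 in the host comparisons (D2.1, then D2A1), and from 0.0989 to 0.492 and from -0.158 to 0.340 in the line comparisons (BALB/c, then SCID-beige), where all 4 and 4 of 5 were above 0. Of tumors with a same-numbered partner, 1 of 8, 0 of 8, 3 of 8 and 6 of 10 were most alike to it. With the replicate number as a block, all-gene calls were 14 and 0 by host, 7116 and 5311 by line and 3 for the interaction, and member calls were 5, 0, 6, 1 and 0. Depth limits the SCID-beige values: a member at 0 there is bounded at 3 counts per tumor.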
